A study of Mus musculus with 6 samples.

Results

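Siglec receptors, the family of cell surface lectins that bind sialic acid, and Spn, the heavily sialylated surface mucin also called leukosialin or CD43, were compared between 2 sorted populations of mouse bone marrow cells. The members were taken by name. Of the 11489 genes in the deposited table, those whose symbol starts with Siglec and the genes Cd33, Cd22 and Spn were kept, which gave 8 genes: Siglec1, Siglecf, Siglecg, Cd33, Siglece, Cd22, Siglech and Spn. RNA was sequenced from 3 libraries of F4/80+ Epor-eGFP+ cells and 3 libraries of F4/80+ Epor-eGFP- cells, all sorted by flow cytometry. F4/80 is the surface protein encoded by Adgre1, often used to sort macrophages of the mouse, and the erythropoietin receptor is the product of Epor. Both populations were sorted for F4/80, the labels name both as macrophages of erythroblastic islands, and they separate the groups only by the eGFP of the Epor reporter. The labels give no strain, age or treatment, and do not say how the reporter was built or whether separate animals gave the libraries within a group. The p-values therefore reflect how these libraries vary among themselves, and that variation may be technical. Libraries are called by the numbers 0, 1 and 2 of the deposited column names, and 3 values of a group are given in that order.

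Siglecs read sialic acid, the sugar that ends many glycan chains on cell surfaces. Most members of the family related to CD33 carry inhibitory motifs (ITIMs) in their cytoplasmic tail, which recruit the phosphatases encoded by Ptpn6 and Ptpn11, whereas Siglec1 (sialoadhesin, CD169) has a long extracellular part, lacks such motifs and serves adhesion. Siglec1 is a known marker of tissue macrophages, including those around which erythroblasts mature in bone marrow, and Spn is one of the sialylated proteins it is known to bind.

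The values are FPKM, the fragments assigned to a gene scaled to the length of its transcript and to the size of the library. Levels can thus be compared between genes, and between libraries as far as that scaling holds. Total FPKM per library lay between 505141 and 519650 in Epor-eGFP- and between 467176 and 501037 in Epor-eGFP+. Every Epor-eGFP+ total was therefore the lower, and how calls moved with rescaling is given at the end. FPKM holds no read counts, so the depth behind each value is unknown. Differences are given as log2 fold changes of (FPKM + 1), Epor-eGFP+ minus Epor-eGFP-, tested with limma over the 10964 genes whose mean reached 1 FPKM, and a gene is called when its adjusted p is under 0.05. This scale understates the change of genes at low levels. Epor itself was at 0.375, 0.414 and 0.217 FPKM without eGFP and at 6.67, 3.43 and 7.78 FPKM with it (log2 fold change 2.33, SE 0.25, limma adjusted p = 0.000842), in the direction of the labels. Adgre1 was at 132 to 139 FPKM without and 117 to 241 FPKM with eGFP, and its difference was not called (limma adjusted p = 0.463).

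Siglec1 rose in Epor-eGFP+ cells while Siglecf, Siglecg, Cd33 and Siglece, 4 receptors of the CD33-related branch, fell. Neither the B cell receptor Cd22 nor the ligand Spn was called. Of the 8 members, 7 reached the level needed for the test, and Siglech did not. Of the 7, 1 was called higher, against 22.7% of all tested genes, and 4 were called lower, against 26.3%. In either direction 5 of 7 tested members were called, where 49.0% of all tested genes were. The 2 groups of libraries did not overlap for 4 of the 7 members, where they did not overlap for 60.4% of all tested genes. So much of the transcriptome differed between these populations that the members' counts, read against these shares, do not set the family apart. The median log2 fold change of the 7 tested members was -0.41, beside -0.01 for all tested genes, whose middle 50% lay between -0.31 and 0.29.

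**Figure D1:**
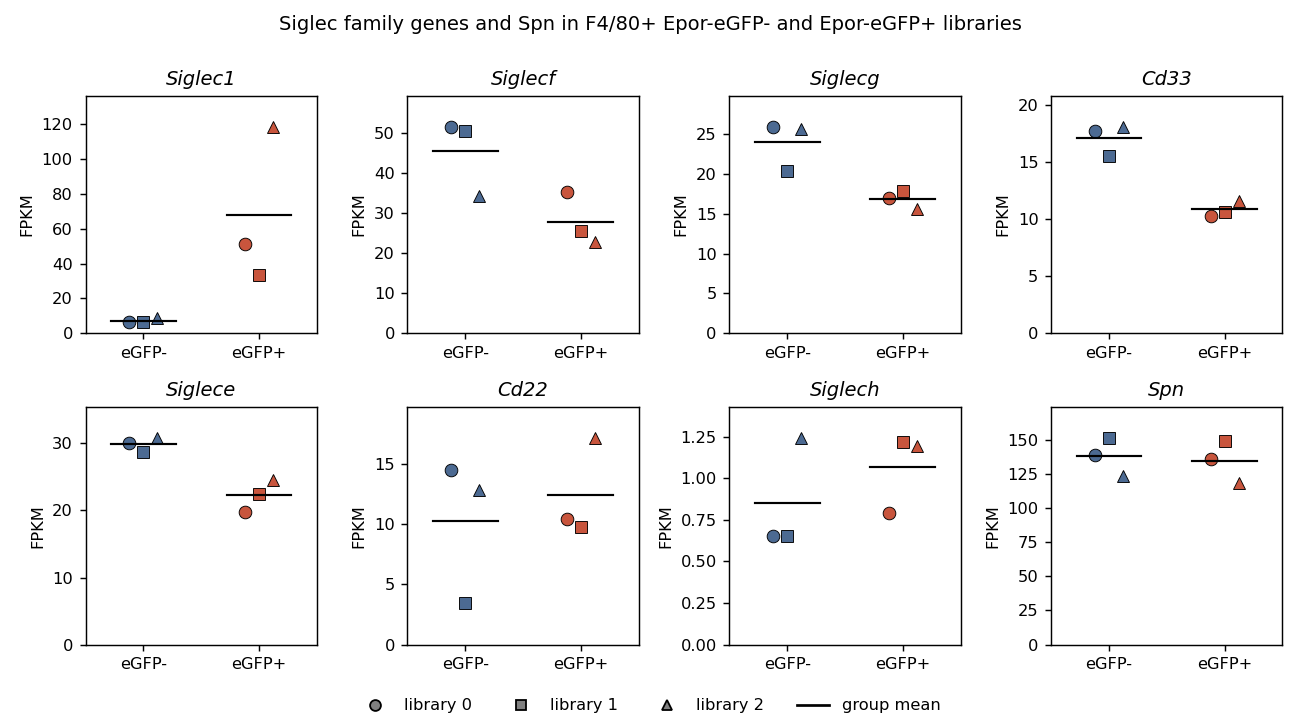
FPKM of the 8 members, 1 panel each with its own linear axis from 0, with a blue point for each Epor-eGFP- library, a red point for each Epor-eGFP+ library, a shape for each library number and a line at each group's mean. Siglec1 is between 6.33 and 8.90 FPKM without eGFP and between 33.4 and 119 FPKM with it, Cd33 and Siglece separate in the other direction, and Spn and Cd22 overlap.

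Siglec1 lies on chromosome 2 (GRCm38, chr2:131069220-131086765, minus strand), and its longest annotated transcript has 21 exons. Libraries 0, 1 and 2 of Epor-eGFP- had 6.33, 6.39 and 8.90 FPKM, and those of Epor-eGFP+ had 51.2, 33.4 and 119 FPKM. Every Epor-eGFP+ library stood above every Epor-eGFP- library, but within Epor-eGFP+ the highest library was 3.56 times the lowest. The ratio of group means was 9.40 and that of group medians 8.01, and the log2 fold change was 2.88 (95% confidence interval 1.88 to 3.88, limma adjusted p = 0.00217). By log2 fold change Siglec1 ranked 70 among the 10964 tested genes. Its mean in Epor-eGFP+ was 67.7 ± 45.0 FPKM (SD, n = 3), and 42.3 FPKM without library 2. The log2 fold change without that library was 2.38 and still called (limma adjusted p = 0.00112). The level of Siglec1 among all genes of the table moved from percentile 36.3 to percentile 90.5 of the group means. No word of 50 bases in its transcripts occurs in another annotated gene, so few reads could be shared with other genes. In RNA from whole sorted populations, fewer cells that express a gene and less RNA of that gene per cell cannot be told apart, here and for every gene below.

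Because F4/80 defined the sort, Siglec1 was also set against other macrophage genes within each library, as the log2 ratio of (FPKM + 1). Against Adgre1 the ratio of Siglec1 was -4.07 ± 0.22 in Epor-eGFP- and -1.42 ± 0.38 in Epor-eGFP+ (SD, n = 3 each), a difference of 2.65. Against Csf1r, the receptor for the macrophage growth factor CSF1, the ratio was higher by 3.20. Against these general macrophage genes the ratio was thus higher in Epor-eGFP+ cells. Against 4 other genes of resident macrophages it was lower. The Siglec1 ratio differed by -1.02 against Vcam1, an adhesion molecule for erythroblasts, and by -1.94 against Cd163, the scavenger receptor for haemoglobin and haptoglobin. It differed by -1.29 against Mrc1, the mannose receptor CD206, and by -1.24 against Mertk, a receptor for the uptake of apoptotic cells (-2.05 with a pseudocount of 0.1, since Mertk was at 0.567 to 1.24 FPKM without eGFP). The groups did not overlap for any of the 6 ratios, and the exact two-sided permutation p was 0.1 for each (0.1 adjusted over the 6), the smallest that 3 against 3 libraries can give.

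Within Epor-eGFP+ these 4 genes shared the order of the libraries. Vcam1 was at 417, 263 and 999 FPKM, Mrc1 at 147, 95.9 and 340 FPKM, Cd163 at 115, 58.2 and 267 FPKM and Mertk at 27.1, 18.3 and 57.9 FPKM in libraries 0, 1 and 2. Library 2 had the highest value of each and library 1 the lowest, the order that Siglec1 had. Adgre1 (143, 117 and 241 FPKM) and Csf1r (206, 197 and 288 FPKM) had it too, so the order was not particular to these 4 genes. The ratio of Siglec1 to Mrc1 was nearly fixed at -1.51 ± 0.0082 (SD, n = 3). In Epor-eGFP- the same 4 genes were at 24.5 to 40.4, 7.57 to 9.02, 2.66 to 4.34 and 0.567 to 1.24 FPKM in turn. The genes with the profile most like Siglec1 over the 6 libraries, by the root mean square difference of centred log2 values, were Ubd (0.129), Cbr2 (0.153), Folr2 (0.164), P2ry13 (0.184) and Stab2 (0.188). Their likeness describes 6 libraries of 2 groups and carries no test. Without eGFP the means of Ubd, Folr2 and Stab2 were 0.449, 0.285 and 0.307 FPKM, levels at which the log2(FPKM + 1) scale understates the change.

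**Figure D2:**
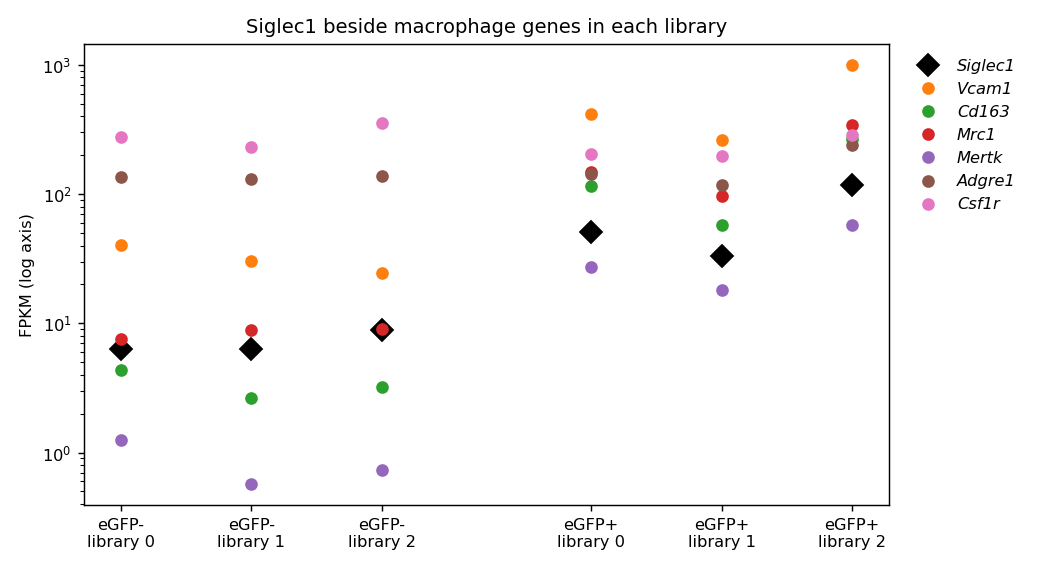
FPKM on a log axis of Siglec1 and of the 6 macrophage genes in each of the 6 libraries, with Siglec1 as black diamonds and a colour for each other gene. Adgre1 and Csf1r lie between 117 and 353 FPKM in all 6 libraries, while Siglec1, Vcam1, Cd163, Mrc1 and Mertk are higher in all 3 Epor-eGFP+ libraries. Within Epor-eGFP+ every gene shown, Adgre1 and Csf1r included, is highest in library 2.

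The 4 receptors that fell share a stretch of chromosome 7. Siglecf lies at chr7:43351341-43359531 on the plus strand, Siglecg at chr7:43408204-43418358 on the plus strand, Cd33 at chr7:43524216-43544428 on the minus strand and Siglece at chr7:43651070-43660161 on the minus strand (GRCm38). RefSeq promoter windows of build GRCm38.p6, from 250 bases before to 50 bases after each start site, were matched for 7 of the 8 members, all but Siglec1. Siglecf and Cd33 are shown first because both fell and their windows hold the longest run of letters common to any pair of different members. Capitals mark the runs of at least 10 letters that both windows hold, each written 5′ to 3′ on the strand of the gene (chr7:43351091-43351390, plus, and chr7:43533122-43533421, minus).
Siglecf: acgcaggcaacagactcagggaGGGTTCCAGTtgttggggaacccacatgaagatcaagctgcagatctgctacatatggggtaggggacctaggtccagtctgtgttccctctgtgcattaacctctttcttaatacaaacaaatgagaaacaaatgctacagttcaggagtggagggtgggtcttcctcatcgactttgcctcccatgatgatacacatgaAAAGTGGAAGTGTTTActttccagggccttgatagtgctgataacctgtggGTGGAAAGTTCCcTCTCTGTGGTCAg
Cd33: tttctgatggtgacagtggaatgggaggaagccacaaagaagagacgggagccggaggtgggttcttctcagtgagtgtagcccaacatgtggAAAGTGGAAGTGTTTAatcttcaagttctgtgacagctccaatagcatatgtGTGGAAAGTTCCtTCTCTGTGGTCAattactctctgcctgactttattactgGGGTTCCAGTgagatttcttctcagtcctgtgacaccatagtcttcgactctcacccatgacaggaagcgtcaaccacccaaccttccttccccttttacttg
The longest common run, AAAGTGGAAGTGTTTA, has 16 letters and begins 27 bases before the start site in Siglecf and 157 bases before it in Cd33. It occurs in 2 of the 32851 promoter windows of the table, these 2. The runs GTGGAAAGTTCC and TCTCTGTGGTCA follow it in the same order in both windows, after the start site in Siglecf and before it in Cd33, whereas GGGTTCCAGT does not keep that order. Other pairs of members had no common run longer than 10 letters.

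Siglece is shown because its window holds the hexamer GAGGAA, the core letters bound by the myeloid factor PU.1 (the product of Spi1), more often than that of any other member. Capitals mark its 3 matches, which all lie on the opposite strand and so read TTCCTC, and begin 87, 36 and 11 bases before the start site (chr7:43660112-43660411, minus strand).
Siglece: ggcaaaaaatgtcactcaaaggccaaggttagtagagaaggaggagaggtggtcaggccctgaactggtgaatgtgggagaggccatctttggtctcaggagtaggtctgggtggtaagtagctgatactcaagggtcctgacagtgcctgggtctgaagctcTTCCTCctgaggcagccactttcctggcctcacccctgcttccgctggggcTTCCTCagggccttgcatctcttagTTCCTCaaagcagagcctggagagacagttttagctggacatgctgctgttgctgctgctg
Searched on both strands, GAGGAA was found for 5 of the 7 matched members, Siglecf, Siglecg, Cd33, Siglece and Siglech, and in 28.3% of all windows. The 7 members have 8 windows, since Siglecg has an extra window, which holds no match. Member counts are thus per gene, whereas the shares are per window. TGTGGT, the core letters of RUNX sites, was found in 3, Siglecf, Cd33 and Siglech, against 16.8% of all windows. TTGCNNAA, for C/EBP factors, was found in 1, Siglech, against 10.8%. The interferon-stimulated response element (ISRE) was found in none of the 7, against 3.44% of all windows. A match describes the letters only and shows no binding. The TGTGGT matches of Siglecf and Cd33 lie inside their shared run TCTCTGTGGTCA. Of the genes of such factors, Spi1 (log2 fold change -0.61), Runx1 (-0.38) and Cebpb (-1.39) were lower in Epor-eGFP+ cells, and Cebpa (-0.04) was not called. Siglech holds GAGGAA too and was too low for the test. A link of these factors to the receptors was not tested.

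Cd33, a Siglec of myeloid cells, was at 17.7, 15.6 and 18.1 FPKM without eGFP and at 10.3, 10.7 and 11.6 FPKM with it. The groups stood well apart and each was tight. The mean fell by 36.5%, from 17.1 ± 1.38 to 10.9 ± 0.69 FPKM (SD, n = 3 each; log2 fold change -0.61, 95% confidence interval -0.81 to -0.40, limma adjusted p = 0.00196). Siglece, the inhibitory Siglec of mouse neutrophils, monocytes and macrophages, was at 30.1, 28.8 and 30.8 FPKM without eGFP and at 19.7, 22.5 and 24.6 FPKM with it. These groups also did not overlap. Its mean fell by 25.6%, from 29.9 ± 1.06 to 22.3 ± 2.43 FPKM (SD, n = 3 each; log2 fold change -0.41, 95% confidence interval -0.63 to -0.20, limma adjusted p = 0.00979).

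Siglecg, known for restraining B cell receptor signalling and for binding CD24, was at 26.0, 20.4 and 25.7 FPKM in cells without eGFP and at 17.0, 17.9 and 15.7 FPKM in cells with it. All 3 Epor-eGFP+ libraries lay below the lowest Epor-eGFP- library, number 1. The mean fell by 29.8%, from 24.0 ± 3.15 to 16.8 ± 1.11 FPKM (SD, n = 3 each; log2 fold change -0.48, 95% confidence interval -0.74 to -0.22, limma adjusted p = 0.0110). The call was lost when both libraries numbered 2 were left out (-0.38, limma adjusted p = 0.0599). Of the 50-base words in Siglecg transcripts, 5.99% occur in another annotated gene, mainly Gm29791, so its level is less certain than that of Siglec1.

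Siglecf, the Siglec of mouse eosinophils and alveolar macrophages, had the highest receptor level in Epor-eGFP- cells, at 51.5, 50.4 and 34.3 FPKM. In Epor-eGFP+ libraries it was at 35.1, 25.6 and 22.7 FPKM. The groups overlapped, since Epor-eGFP- library 2 was just below Epor-eGFP+ library 0, but Siglecf was lower in Epor-eGFP+ in all 3 pairs of libraries with the same number. The mean fell by 38.8%, from 45.4 ± 9.64 to 27.8 ± 6.48 FPKM (SD, n = 3 each; log2 fold change -0.69, 95% confidence interval -1.18 to -0.20, limma adjusted p = 0.0295). Over 17 alternative settings the call held in 12, beside 16 for Siglecg and 17 for Siglec1, Cd33 and Siglece. It was lost when libraries were rescaled to a common total (limma adjusted p = 0.0561) and without Epor-eGFP- library 0 (0.0995), Epor-eGFP- library 1 (0.0838), Epor-eGFP+ library 1 (0.0752) or Epor-eGFP+ library 2 (0.0709), with the log2 fold change between -0.56 and -0.64. With the number as a replicate block and all 6 libraries kept, the adjusted p was 0.00473 (limma). The cause of the lost calls was not tested.

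The eosinophil markers that stood beside Siglecf moved in both directions. Alox15, a lipoxygenase, was lower (log2 fold change -3.14), as were Adora3, an adenosine receptor (-2.06), and Il5ra, the receptor chain for interleukin 5 (-0.57), while the granule genes Epx and Prg3 were higher (1.26 and 0.97). Without the member Siglecf the list held 2 higher and 5 lower of 10 tested genes, Prg2 among those without a call. Each marker list, here and below, is to be read beside the 22.7% of all tested genes called higher and the 26.3% called lower. Prg2 is listed at 0 in Epor-eGFP+ library 0 and was left out of the sum. The summed level was 7550 to 12659 FPKM in Epor-eGFP- and 5201 to 8615 FPKM in Epor-eGFP+. The part of eosinophil RNA in the Siglecf result was not tested.

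**Figure D3:**
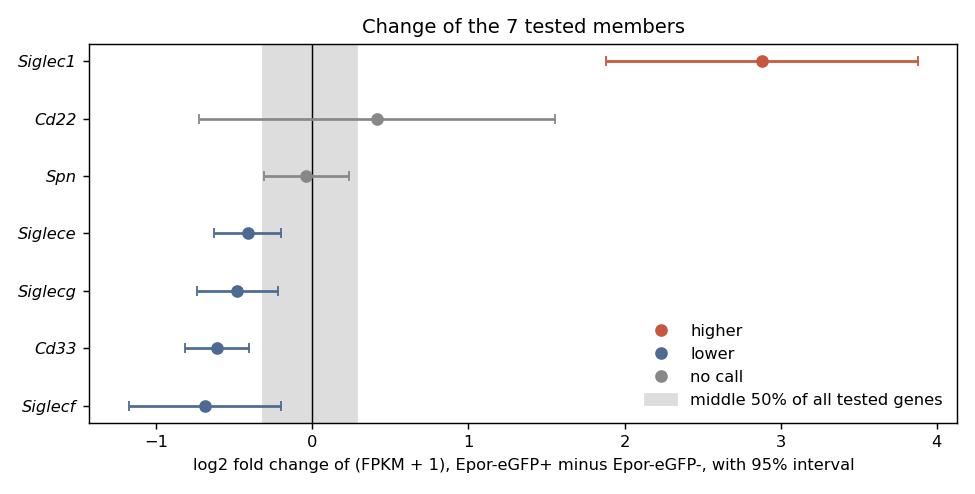
Log2 fold change of (FPKM + 1), Epor-eGFP+ minus Epor-eGFP-, for the 7 tested members, with 95% confidence intervals from limma and the middle 50% of all tested genes as a band from -0.31 to 0.29. Siglec1 is at 2.88, Siglecf, Siglecg, Cd33 and Siglece lie between -0.69 and -0.41, and the intervals of Spn and Cd22 include 0.

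The calls among the genes between these receptors were in the other direction. From Siglecf to Siglece the stretch covers 309 kb and holds 16 protein-coding genes, of which 9 are in the table, the 4 receptors and 5 others. Of those 5, 3 were called higher and none lower, too few genes to read against the 22.7% and 26.3% of all tested genes. Nkg7, a gene of cytotoxic granules, was higher (log2 fold change 1.80), as were Etfb, which encodes a subunit of an electron transfer protein of mitochondria (0.98), and Vsig10l (0.50), and the zinc finger genes Zfp658 and Zfp719 were not called (-0.39 and -0.10, the direction of the receptors). Nkg7 rose from 66.3 ± 20.9 to 227 ± 27.5 FPKM (SD, n = 3 each, limma adjusted p = 0.00128).

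**Figure D4:**
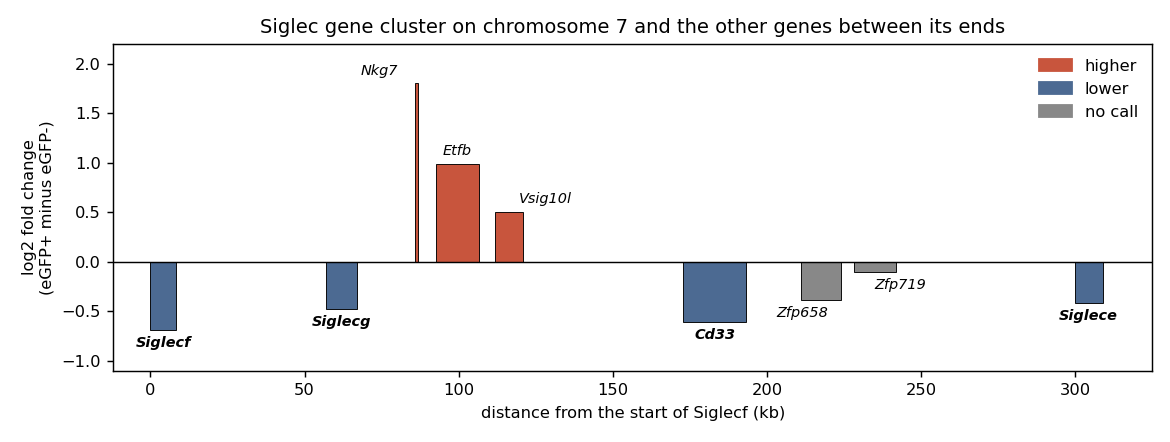
Log2 fold change of (FPKM + 1), Epor-eGFP+ minus Epor-eGFP-, of the 9 genes of the table in the stretch from Siglecf to Siglece, against distance in kilobases from the Siglecf start, with each bar as wide as its gene and coloured by call. The 4 Siglec genes lie below 0, and Nkg7, Etfb and Vsig10l between them lie above 0.

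Cd22, a receptor of B cells that restrains their antigen receptor, was at 14.5, 3.41 and 12.8 FPKM without eGFP and at 10.4, 9.78 and 17.2 FPKM with it. The groups overlapped, and Epor-eGFP- library 1 stood far below the other libraries. The log2 fold change was 0.41 (95% confidence interval -0.72 to 1.55, limma adjusted p = 0.50). It was -0.16 without that library. Several B cell markers were low in the same library: over Epor-eGFP-, Ms4a1 had 35.3, 10.7 and 30.4 FPKM and Cd79a had 109, 39.0 and 164 FPKM. Igll1 differed little between these libraries, at 6.27, 5.42 and 5.84 FPKM, and Jchain went the other way, at 3.91, 19.6 and 12.1 FPKM. The sum of the 9 B lineage markers other than Cd22 and Siglecg was 131 to 388 FPKM without and 240 to 305 FPKM with eGFP, with 3 genes higher, none lower and 6 without a call. The part of B cell RNA in the levels of Cd22 and Siglecg was not tested. The antisense gene Gm29439 overlaps an exon of Cd22, and 10.3% of the 50-base words of Cd22 occur in another annotated gene, mainly Gm29439. No source used here says that counting used the strand, so reads from the overlapping part cannot be told apart.

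Siglech, the Siglec of plasmacytoid dendritic cells, signals through the adaptor Tyrobp. Its level was 0.651, 0.651 and 1.24 FPKM without eGFP and 0.793, 1.22 and 1.197 FPKM with it. The groups overlapped, and the mean of 0.959 FPKM over the 6 libraries was too low for the test. The other markers of that cell type held 0 higher and 1 lower of 6 tested genes and summed to 179 to 304 FPKM in Epor-eGFP- and 156 to 244 FPKM in Epor-eGFP+.

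Spn was the most abundant member in both populations. Libraries 0, 1 and 2 had 139, 152 and 124 FPKM in Epor-eGFP- and 136, 149 and 119 FPKM in Epor-eGFP+. The groups overlapped almost fully, and libraries with the same number had nearly the same level. The means were 138 ± 14.2 and 135 ± 15.4 FPKM (SD, n = 3 each), and the log2 fold change was -0.04 (95% confidence interval -0.31 to 0.23, limma adjusted p = 0.802). The interval of Spn overlaps that of Siglece, which runs from -0.63 to -0.20. The sign of the Spn estimate turned with the scaling of the libraries. Spn has 2 exons and lies at chr7:127132232-127137823 on the minus strand, far from the Siglec stretch on the same chromosome. Its nearest profiles were those of Nae1 (0.0200), Ncapd3 (0.0235), Rfc1 (0.0275), Cry2 (0.0276) and Mzt1 (0.0301).

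The profiles nearest to Cd33, Siglece, Siglecg and Siglecf lay close as well. For Cd33 they were Tor1aip1 (0.0267), Ptpn6 (0.0300), Suv420h1 (0.0311), Irak2 (0.0323) and Rell1 (0.0388). For Siglece they were Mier1 (0.0287), Cript (0.0347), Zbtb43 (0.0417), Eps15 (0.0441) and Fbxo11 (0.0458). For Siglecg they began with Cd37 (0.0289) and Jrkl (0.0315), followed by Ccnl2, Ankrd16 and Dcun1d3. For Siglecf they included Ikzf2 (0.0546), St14 (0.0764), Csf1 (0.0769) and Ankrd9 (0.0854). For Cd22 they were Snn (0.240), Cd79b (0.273), Fcgr4 (0.302), Fcrl1 (0.303) and Treml4 (0.307). A small distance shows that the centred log2 values ran alike over the same 6 libraries, at levels that could differ widely.

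The order of the receptors by level differed between the populations. In Epor-eGFP- cells the order was Spn, Siglecf, Siglece, Siglecg, Cd33, Cd22, Siglec1 and Siglech, and only Cd22 and Siglec1 overlapped as neighbours. In Epor-eGFP+ cells Siglec1 moved up to the place after Spn, followed by Siglecf, Siglece, Siglecg, Cd22, Cd33 and Siglech. There Spn, Siglec1, Siglecf and Siglece overlapped from neighbour to neighbour, as did Siglecg, Cd22 and Cd33, while Siglece and Siglecg did not.

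The summed level of the 7 receptors overlapped between the groups, and the share of Siglec1 in it did not. The sum was 146.8, 125.5 and 131.9 FPKM without eGFP, beside 144.4, 121.0 and 211.7 FPKM with it (exact two-sided permutation p = 0.7). The groups overlapped, and Epor-eGFP+ library 2 was the highest. Without Siglec1 the sum was 128 ± 11.3 FPKM in Epor-eGFP- and 91.3 ± 3.16 FPKM in Epor-eGFP+ (SD, n = 3 each), with no overlap (exact p = 0.1, the smallest possible). Siglec1 made up 4.32%, 5.09% and 6.75% of the receptor sum in Epor-eGFP- libraries and 35.4%, 27.6% and 56.1% in Epor-eGFP+ libraries, again with no overlap (exact p = 0.1).

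Each pair of tested members was also compared within libraries as a log2 ratio of (FPKM + 1). Of the 21 pairs, 11 had groups that did not overlap, and the smallest exact two-sided permutation p was 0.1 (0.191 adjusted over the 21 pairs). All 6 pairs with Siglec1 were among the 11. The ratio of Siglec1 to Siglecf was higher by 3.57, to Cd33 by 3.49, to Siglecg by 3.36, to Siglece by 3.30, to Spn by 2.92 and to Cd22 by 2.47. Against Spn, the ratios of Cd33, Siglecf and Siglecg were lower by a difference of -0.57, -0.65 and -0.44 with no overlap, and that of Siglece by -0.38 with overlap (exact p = 0.2). Between Cd33 and Siglece the ratio differed by -0.19 with no overlap, and between Cd33 and Siglecf by 0.08 with overlap (exact p = 1.0).

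The genes that make, attach, modify and remove sialic acid, the sugar that Siglecs read, held calls in both directions. Of 8 tested genes of sialic acid synthesis, activation and breakdown, 5 rose, none fell and 3 had no call. The median log2 fold change was 0.44, beside -0.01 for all tested genes. Of all tested genes 22.7% were called higher and 26.3% lower, the shares against which this and each list below is to be read. A count near these shares does not set a list apart. Gne, the first enzyme of the pathway, rose from 10.96 ± 1.10 to 15.4 ± 1.08 FPKM (SD, n = 3 each; 0.46, limma adjusted p = 0.00757), and Nanp (0.55) and the transporter Slc35a1 (0.42) were higher too. The largest differences were in Npl, the lyase that breaks free sialic acid down (1.92, limma adjusted p = 0.00405), and in Renbp, which converts N-acetylglucosamine to N-acetylmannosamine and back (0.82). Npl was at 4.44, 5.10 and 3.44 FPKM without eGFP and at 20.3, 10.9 and 30.5 FPKM with it, so library 2 was again the highest and library 1 the lowest of Epor-eGFP+. Nans (0.23) and Cmas (-0.19), which make and activate sialic acid, were not called, nor was Cmah (-0.46). The count of higher genes was 3 without Epor-eGFP- library 0 and 3 without Epor-eGFP+ library 0.

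Among 12 tested sialyltransferases, which attach the sugar, 5 rose, 4 fell and 3 had no call (median -0.09). St6galnac2 rose (2.36, limma adjusted p = 0.00611) from low levels of 0.190, 0.119 and 0.0795 FPKM to 4.41, 1.95 and 11.2 FPKM. The enzymes that fell had higher levels: St8sia4, which makes polysialic acid, fell from 35.9 ± 3.53 to 16.6 ± 3.08 FPKM (-1.08), St3gal2 from 22.1 ± 0.80 to 11.5 ± 0.93 FPKM (-0.89) and St3gal4 from 50.1 ± 6.71 to 28.4 ± 3.04 FPKM (-0.79; SD, n = 3 each). St3gal5 (-0.71) and St6galnac6 (0.00) were not called. The count of higher genes was 3 without Epor-eGFP- library 0, and the sign of the median turned when libraries were rescaled to a common total.

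Of 5 tested genes in the list of sialidases and partners, 2 rose and 3 had no call (median 0.03). Neu1, the lysosomal sialidase that removes the sugar, was not called (0.03), nor were its protective partner Ctsa (-0.06) and Casd1, which adds acetyl groups to sialic acid (-0.05). The 2 that rose were Glb1, the beta-galactosidase of the same lysosomal complex (0.46), and Siae, which takes acetyl groups off sialic acid (0.36). The signs of Ctsa and Casd1 turned with the scaling. The count of 2 fell to 0 without Epor-eGFP- library 0 or Epor-eGFP+ library 0, and to 1 without Epor-eGFP- library 1 or 2.

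Spn carries many O-linked chains. Of 12 tested enzymes that start or extend such chains, 2 rose, 3 fell and 7 had no call (median -0.15). Galnt3 (1.74) and Galnt12 (1.06), which start chains, were higher. C1galt1c1, the chaperone needed for the core 1 enzyme, fell from 46.2 ± 8.16 to 20.7 ± 2.37 FPKM (SD, n = 3 each; -1.11, limma adjusted p = 0.00130), Galnt10 was lower by -0.41, and Gcnt1, the core 2 enzyme known to act on Spn, was lower by -0.40. Galnt1 and Galnt2 were not called (0.10 and 0.15). The count of lower genes was 1 without Epor-eGFP+ library 0 and 5 without Epor-eGFP+ library 1.

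Among 14 tested surface glycoproteins that carry sialic acid, Spn included, 3 rose, 5 fell and 6 had no call (median 0.12). Mrc1 rose (4.17). Cd52, a small surface glycoprotein of leukocytes, fell from 744 ± 142 to 296 ± 11.4 FPKM, and Ptprc, which encodes CD45, fell from 258 ± 16.4 to 108 ± 9.22 FPKM (SD, n = 3 each; -1.31 and -1.25). Spn and Cd164 (0.35) were the most abundant members without a call. Spn at a like level in both groups therefore stood beside other leukocyte surface glycoproteins that were lower.

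The cytoplasmic tail of Spn binds the cytoskeleton through ERM proteins. Of 5 tested linkers, 3 fell, 1 rose and 1 had no call (median -0.53). Msn, which encodes moesin, fell from 410 ± 42.4 to 209 ± 9.90 FPKM (SD, n = 3 each; -0.96, limma adjusted p = 0.000694), Slc9a3r1 was lower by -0.71 and Ezr, which encodes ezrin, by -0.53. Nf2, which encodes merlin, was higher (0.43), and Rdx, which encodes radixin, was not called (0.03).

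Downstream of the receptors, 9 of 14 tested signalling genes were called lower, 1 higher and 4 not at all (median -0.58). Over all tested genes 26.3% were called lower and 22.7% higher. The kinase Fgr fell from 123 ± 17.4 to 52.2 ± 7.36 FPKM (SD, n = 3 each; -1.22). Tyrobp, the adaptor through which Siglech signals, fell from 1212 ± 160 to 694 ± 166 FPKM (-0.82, limma adjusted p = 0.0103). Ptpn6, the phosphatase recruited by ITIMs, fell from 266 ± 13.9 to 171 ± 7.35 FPKM (-0.63). Src rose from 0.397 ± 0.11 to 5.33 ± 1.59 FPKM (2.15, limma adjusted p = 0.000516). Lyn (-0.55, limma adjusted p = 0.0502) and Grb2 (-0.20) were not called. Of the 14 other tested ITIM receptors of myeloid cells, 5 fell, 2 rose and 7 had no call (median -0.34). Milr1, Cd300lf, Ceacam1 and Pirb were lower by between -1.31 and -1.21, whereas Sirpa (0.01) and Fcgr2b (-0.30) were not called. The 2 that rose were Lair1 (0.88) and Clec12a (0.23), and the count was 1 with any of the 6 libraries left out.

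**Figure D5:**
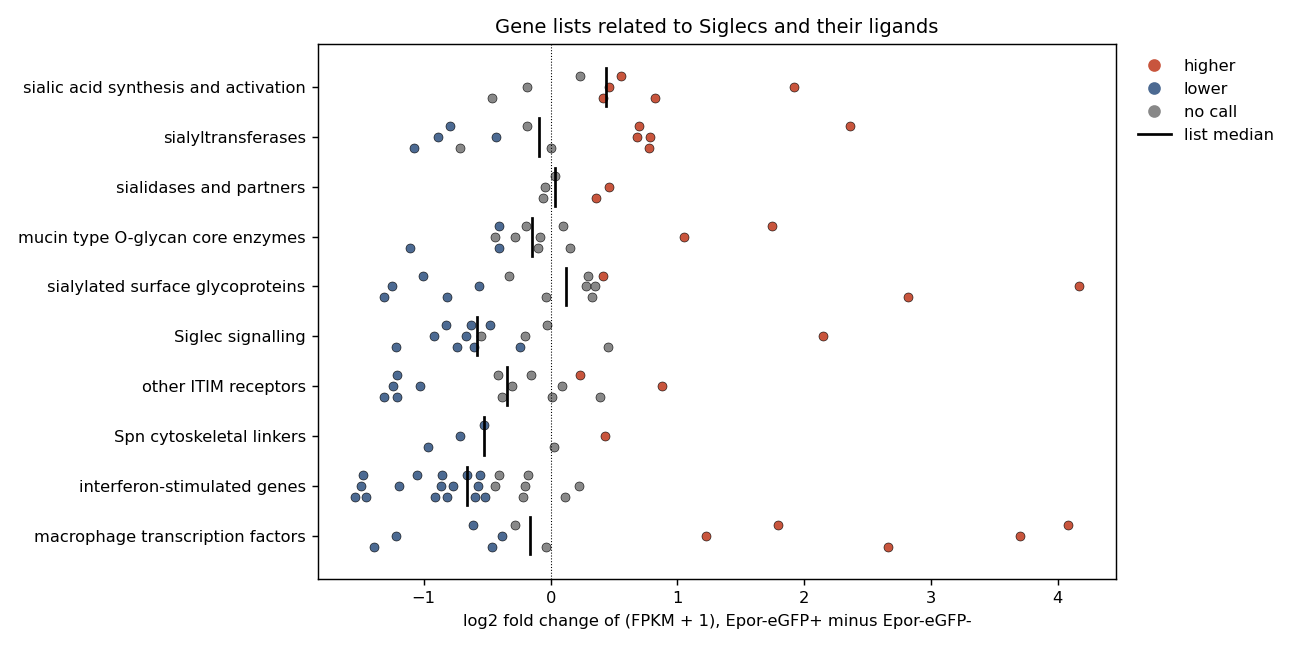
Log2 fold change of (FPKM + 1), Epor-eGFP+ minus Epor-eGFP-, for each tested gene of 10 lists related to the receptors and their ligands, 1 row per list, coloured by call, with a black line at the list median. Siglec signalling and interferon-stimulated genes lie mostly below 0 (medians -0.58 and -0.66). The row of sialic acid synthesis and activation, which includes Npl, a gene of breakdown, lies mostly above 0 (0.44).

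Interferon-stimulated genes were listed because Siglec1 is known as one. Of 23 tested, none was called higher, 16 fell, against 26.3% of all tested genes, and 7 had no call (median -0.66). The antiviral genes Oas3, Mx1, Zbp1 and Oasl2 were lower by -1.55, -1.50, -1.48 and -1.46, and Bst2 (0.23) was not called. Mx1 was at 11.5, 14.3 and 19.7 FPKM without eGFP and at 3.82, 6.24 and 4.04 FPKM with it, with no overlap. The count of lower genes was 10 without Epor-eGFP+ library 0.

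The transcription factors of macrophages split. Of 12 tested, 5 rose, 5 fell and 2 had no call (median -0.16). Spic, known from macrophages that recycle red cells, rose from 2.42 ± 0.71 to 63.3 ± 37.96 FPKM (SD, n = 3 each; 4.08), Nr1h3, the receptor LXR alpha, by 3.70 and Maf by 2.66. Irf8 (-0.28) and Cebpa (-0.04, a sign that turned with the scaling) were not called. The count of lower genes was 3 without Epor-eGFP- library 0.

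Markers of the cell types that such a sort can hold were called in both directions, where 22.7% of all tested genes were called higher and 26.3% lower. Of 14 tested markers of resident macrophages, 10 rose and none fell, and their sum was 638 to 878 FPKM in Epor-eGFP- and 2291 to 7552 FPKM in Epor-eGFP+. Monocyte markers went the other way, with 0 higher and 9 lower of 10, and sums of 5454 to 6846 FPKM against 2574 to 3199 FPKM. Neutrophil markers held 3 higher and 10 lower of 14, and summed to 25991 to 40317 FPKM against 20058 to 25706 FPKM. These last genes made up a larger sum than the macrophage markers in every library, although the labels name the cells as macrophages. Erythroid markers held 9 higher and none lower of 13, with sums of 73.4 to 329 FPKM against 492 to 1078 FPKM. The T and NK cell markers held 1 higher, Nkg7, and 5 lower of 6 tested. Osteoclast markers held 3 higher and 1 lower of 5, and megakaryocyte markers 2 higher and none lower of 8. The part of these cell types in the differences of Siglec1, Cd33, Siglece and the lists was not tested.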

How the data were processed

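RNA of 6 libraries was measured by RNA-seq. The authors deposited FPKM in a single table. The submitters' processing notes list Cufflinks 2.2.1, TopHat2 2.1.0, Trimmomatic 0.35 and bcl2fastq 2.19.1.403 and the build mm10, with neither roles nor order; the sources used here name no annotation or filter. Columns numbered 0 to 2 were assigned to groups only, since the labels number samples 1 to 3.

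Log2(FPKM + 1) of genes whose mean reached 1 FPKM was fitted with limma 3.58.1 (R 4.3.3), group as the only term and a trended prior, with Benjamini-Hochberg adjustment over all tested genes and a threshold of 0.05. Single values had exact permutation tests. Other pseudocounts, filters, scalings, eBayes settings, a replicate block and left-out libraries were tried. Deviations of same-numbered libraries correlated at 0.25, 0.38 and 0.35 over genes, and other pairings at -0.39 to 0.07. Deviations within a group sum to 0, so these values are not independent of each other. Whether the numbers mark pairs is not known, and the main fit and the exact tests leave pairing out. Positions are from GENCODE vM21 (GRCm38) and promoters from RefSeq.

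Of each list with over 6 tested genes, up to 4 called genes with the largest change and up to 2 uncalled genes with the highest mean were named; others named were chosen after their values were seen. Some genes that this rule picks are not reported here. The members and lists were chosen with earlier results of these data known.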

Additional observations from a re-analysis of the deposited data

How the results depend on the processing

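Depth limits are unknown, since the deposited FPKM hold no counts, and 3 libraries a group set the precision. Under the 17 alternatives Siglec1, Cd33 and Siglece kept their direction and call, with log2 fold changes of 2.38 to 3.28, -0.67 to -0.52 and -0.49 to -0.32. Siglecf kept its direction in 17 and its call in 12: it was -0.59 (limma adjusted p = 0.0561) on a common total, and ranged from -0.87 to -0.56 with a library left out. Siglecg was -0.38 without both libraries numbered 2. Cd22 ranged from -0.16 to 0.74 with a library left out, and was -0.16 without Epor-eGFP- library 1. Spn was 0.063 on a common total, 0.024 on a common upper quartile and 0.10 after quantile normalization, and ranged from -0.12 to 0.051 with a library left out (0.03 without Epor-eGFP- library 1, 0.051 without Epor-eGFP+ library 2). The cause of these changes was not tested. Genes called higher numbered 1611 to 2428 and genes called lower 2060 to 2700 with a library left out, against 2489 and 2883 (46.3% of calls higher). The lowest count of higher genes, 1611, came without Epor-eGFP+ library 0. On a common total 3056 were higher and 2082 lower (59.5% higher). The replicate block gave 3066 higher and 3335 lower genes and changed no member's call (Siglecf limma adjusted p = 0.00473). With the block, 1 gene of sialic acid synthesis was called lower and 1 interferon-stimulated gene higher, where none was without it. Of 340 counts of called genes over the 10 related lists and 17 alternatives, 313 stayed within 1.5 times, 21 were smaller and 6 larger. Siglech reached the test with no filter or without Epor-eGFP- library 0 or 1, with log2 fold changes of 0.10 to 0.17 and no call. Of 216 values of ratio differences under alternatives, 215 moved by less than the spread between libraries, and the Siglec1 to Mertk difference was -2.05 with a pseudocount of 0.1.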

Other observations

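Mag, a Siglec of myelin by family membership whose symbol falls outside the rule used to pick the members, was singled out after its values were seen. It was at 8.18, 6.02 and 5.31 FPKM without eGFP and at 3.63, 2.04 and 3.91 FPKM with it. The groups did not overlap, and Mag was lower (log2 fold change -0.85, SE 0.22, limma adjusted p = 0.0172), as were Siglecf, Siglecg, Cd33 and Siglece.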
